A study of Homo sapiens with 6 samples.

Results

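The ZNF genes of human chromosome 19 are protein-coding genes whose symbols start with ZNF and whose Ensembl identifiers map to that chromosome in GENCODE release 29. By this rule, which used no measured value, 249 of the 61661 identifiers in the count table were members, 85 on the short arm (19p) and 164 on the long arm (19q). RNA was sequenced from K562, an established human line of chronic myeloid leukemia in blast crisis, in 3 groups of 2 libraries. Control cells (shCTR, labelled WT) carried a nonsense shRNA, shMETTL3 cells an shRNA against METTL3, and shMETTL14 cells one against METTL14. All 3 groups grew in RPMI1640 with serum and were harvested in logarithmic growth. The methods describe lentiviral delivery of GFP and puromycin resistance with the shRNA for shCTR and shMETTL3, whereas shMETTL14 is known from the labels only. No source says whether the libraries of a group came from separate cultures, so p-values measure only the spread between these libraries, which may be technical.

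METTL3 is the catalytic subunit and METTL14 the RNA-binding partner of the complex that writes N6-methyladenosine (m6A) into mRNA. The zinc finger genes of chromosome 19 arose by repeated tandem duplication, and most encode an array of C2H2 fingers, which bind DNA, behind a KRAB box. The KRAB box recruits TRIM28, which brings in the histone methyltransferase SETDB1 and HP1 proteins, and many of these proteins silence retrotransposons. Their finger arrays are usually encoded by a single long last exon.

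The members lay in 9 clusters, defined as runs of at least 5 members whose neighbouring starts were under 1 Mb apart. On 19p, cluster A held 5 members (ZNF554 to ZNF77), cluster B 16 (ZNF557 to ZNF846), cluster C 26 (ZNF653 to ZNF791) and cluster D 37 (ZNF101 to ZNF254), and ZNF333 stood alone. On 19q, cluster A held 5 members (ZNF302 to ZNF792), cluster B 26 (ZNF565 to ZNF573), cluster C 24 (ZNF575 to ZNF296), cluster D 40 (ZNF175 to ZNF331) and cluster E 59 (ZNF628 to ZNF446), and 10 members lay in shorter runs or singly. Cluster D of 19p, next to the centromere, ran from position 19668796 to 24129961 of chromosome 19 (GRCh38). In translated reference coding sequences, 210 members matched a KRAB pattern and 38 did not, with 1 not read. The median member had 12 fingers and 589 amino acids, and its largest coding exon held 87.3% of the coding sequence. ZNF208, with 36 fingers, had the most.

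Shared sequence is what ties the family together and what can blur its counts. The most common 14-base word of the members' transcripts encodes part of the linker between fingers. It was held by 59.4% of members, 28.6% of ZNF genes on other chromosomes and 0.134% of protein-coding genes without a ZNF symbol. The word was picked for being common in the members, so the choice itself favours them in these shares. Windows of 30 bases around it are shown for 8 members of 19p cluster D on which the results turn, with the shared word in capitals and each strand read 5′ to 3′ from the reference.
ZNF91: ggatacacACTGGAGAGAAACCctacaaat
ZNF100: gaattcatACTGGAGAGAAACCctacaaat
ZNF430: gaattcatACTGGAGAGAAACCctacaaat
ZNF493: gaattcatACTGGAGAGAAACCctacaaat
ZNF254: taattcatACTGGAGAGAAACCttacaagt
ZNF714: caagacatACTGGAGAGAAACCtttcaaat
ZNF208: gtgctcatACTGGAGAGAAACCctacagat
ZNF90: gaattcatACTGGAGAGAAACCctacaagt
The windows lie in the last exon of each transcript. On the minus strand of chromosome 19 (GRCh38) were those of ZNF91 (23362093 to 23362122), ZNF100 (21727525 to 21727554) and ZNF208 (21974343 to 21974372). On the plus strand were ZNF430 (21057066 to 21057095), ZNF493 (21423765 to 21423794), ZNF254 (24126857 to 24126886), ZNF714 (21117074 to 21117103) and ZNF90 (20118384 to 20118413). ZNF100, ZNF430 and ZNF493 were identical over all 30 bases. Over longer stretches the members were more distinct: 124 of 249 shared no 100-base word with another gene, and 64 shared more than 5% of theirs. Of the 48 tested members of that last group, 0 had an adjusted p under 0.05 in any of the 3 comparisons by edgeR or DESeq2, and at an unadjusted p under 0.05 edgeR gave 6 in shMETTL3, 2 in shMETTL14 and 4 between the knockdowns, where 29.9%, 20.7% and 25.0% of all genes had such a p.

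Library totals ran from 19292574 to 20115304 counts, of which the members took between 0.283% and 0.315%. METTL3 was at 90.5 and 90.3 CPM in shCTR and at 52.5 and 46.7 in shMETTL3 (log2 fold change -0.87, edgeR adjusted p = 3.44e-07). METTL14 was at 33.2 and 34.2 CPM in shCTR and at 19.1 and 20.6 in shMETTL14 (log2 fold change -0.76, edgeR adjusted p = 1.40e-05). Of the K562 markers, HBE1, GATA1, TFRC and KLF1 were at 128 CPM or more in every library, and HBG1 lay between 0.509 and 1.10. The 8 markers of other cell types summed to 203 and 183 CPM in shCTR, 175 and 163 in shMETTL3 and 184 and 183 in shMETTL14. Nearly all of this was PTPRC and EPCAM, so the sum does not show that other cells were present. Without these genes, the remaining 6 summed to 5.72 and 4.96 CPM in shCTR, 9.67 and 9.07 in shMETTL3 and 5.60 and 6.78 in shMETTL14. CD3E, CD14, PECAM1 and ALB had at most 6 reads per library. EPCAM was lower in both knockdowns (log2 fold changes of -0.57 and -0.40) and COL1A1 higher in shMETTL3 (1.11), and their part in the results was not tested.

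Most members were expressed at low levels. Of the 249, 191 passed the filter on low counts and were tested, and 58 did not. Of these 58, 33 had no more than 3 reads in any library, 9 of them none at all, which allows up to 3 reads per library, and the other 25 reached at most 16. The tested members had a median of 185 reads averaged over the libraries (from 8.83 to 2876). Their median level per length was 2.40 CPM per kb of the longest transcript, against 8.47 for tested protein-coding genes and 4.99 for tested ZNF genes on other chromosomes. The 157 tested members with a KRAB pattern had a median of 2.13 CPM per kb and the 34 without it 4.22, and the classes overlapped widely, from 0.0608 to 15.2 and from 0.128 to 42.5 CPM per kb. Silent or nearly silent members included ZNF43, ZNF382 and ZNF568, with at most 9, 2 and 3 reads in any library.

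**Figure D1:**
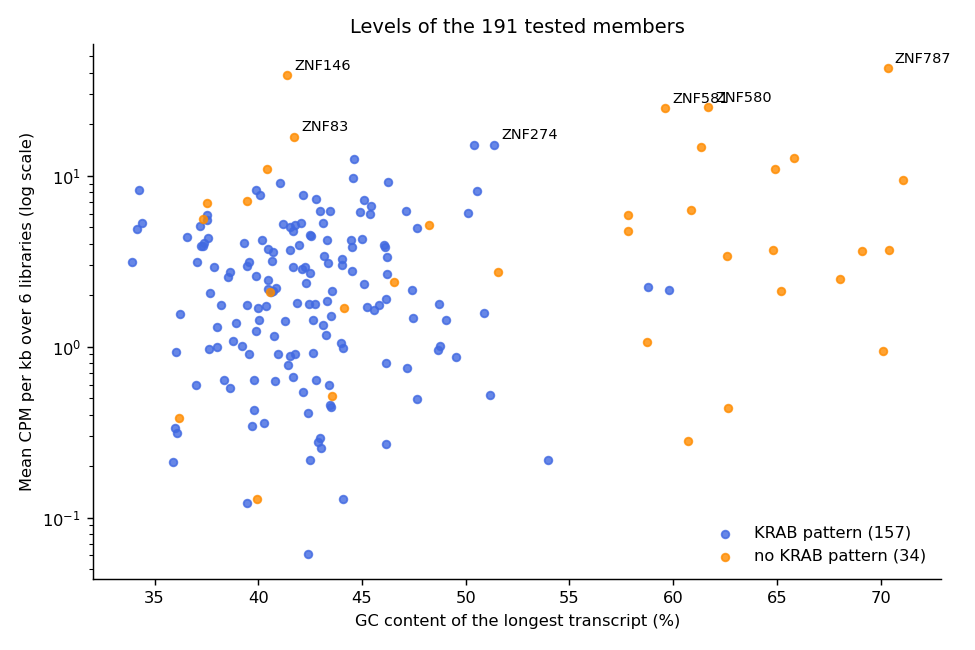
Mean level over the 6 libraries in CPM per kb (log scale) against GC content of the longest transcript for the 191 tested members, coloured by whether the reference protein matched a KRAB pattern. The 34 members without the pattern include 5 of the 6 highest levels and most of the members richest in GC.

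The highest levels per length belonged to ZNF787 (42.5 CPM per kb), ZNF146 (38.7), ZNF580 (25.2), ZNF581 (24.8), ZNF83 (16.9) and ZNF274 (15.2). Of these, ZNF274 alone matched the KRAB pattern; it binds the 3′ ends of zinc finger genes, where it recruits TRIM28 and SETDB1. ZNF146, which consists almost wholly of fingers, was at 154 and 148 CPM in shCTR, 143 and 148 in shMETTL3 and 136 and 150 in shMETTL14. ZNF274 was at 71.7 and 72.3 CPM in shCTR, 76.6 and 76.2 in shMETTL3 and 70.1 and 74.7 in shMETTL14. None of these 6 passed the edgeR test in any comparison, and their log2 fold changes against shCTR lay between -0.10 and 0.15. ZNF146 shared 6.79% of its 100-base words with ZNF565, and ZNF580 and ZNF581 overlap, so their levels are uncertain.

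In shMETTL14 cells more members were lower than higher, and most of the lower ones lay in cluster D of 19p. With shCTR as the reference, 10 members were lower and 1 higher, where the background over all 17686 genes tested was 6.69% called, 3.26% lower and 3.43% higher. The members' shares were 5.24% lower and 0.524% higher. Their median log2 fold change was -0.11, against 0.00 over all genes, and 138 of the 191 had a negative value. In cluster D 7 of 26 tested members were lower and none higher (edgeR, adjusted p under 0.05). At an unadjusted p under 0.05, 13 of them were lower and 0 higher, where 9.97% of all genes were lower and 10.7% higher, and DESeq2 also called 0 higher. Of the 26, 24 pass the filter on low counts with shCTR and shMETTL14 alone, and of these 7 were lower, with a median of -0.33. The cluster's median was -0.33, and 23 of 26 values were negative. Over the 165 tested members outside it, 3 were lower and 1 higher, with a median of -0.10. Among these, 19q cluster B had negative values in 16 of its 17 tested members and a median of -0.20, with 0 called. Cluster D of 19p was singled out after these values were seen, and no test compared it with the other members.

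**Figure D2:**
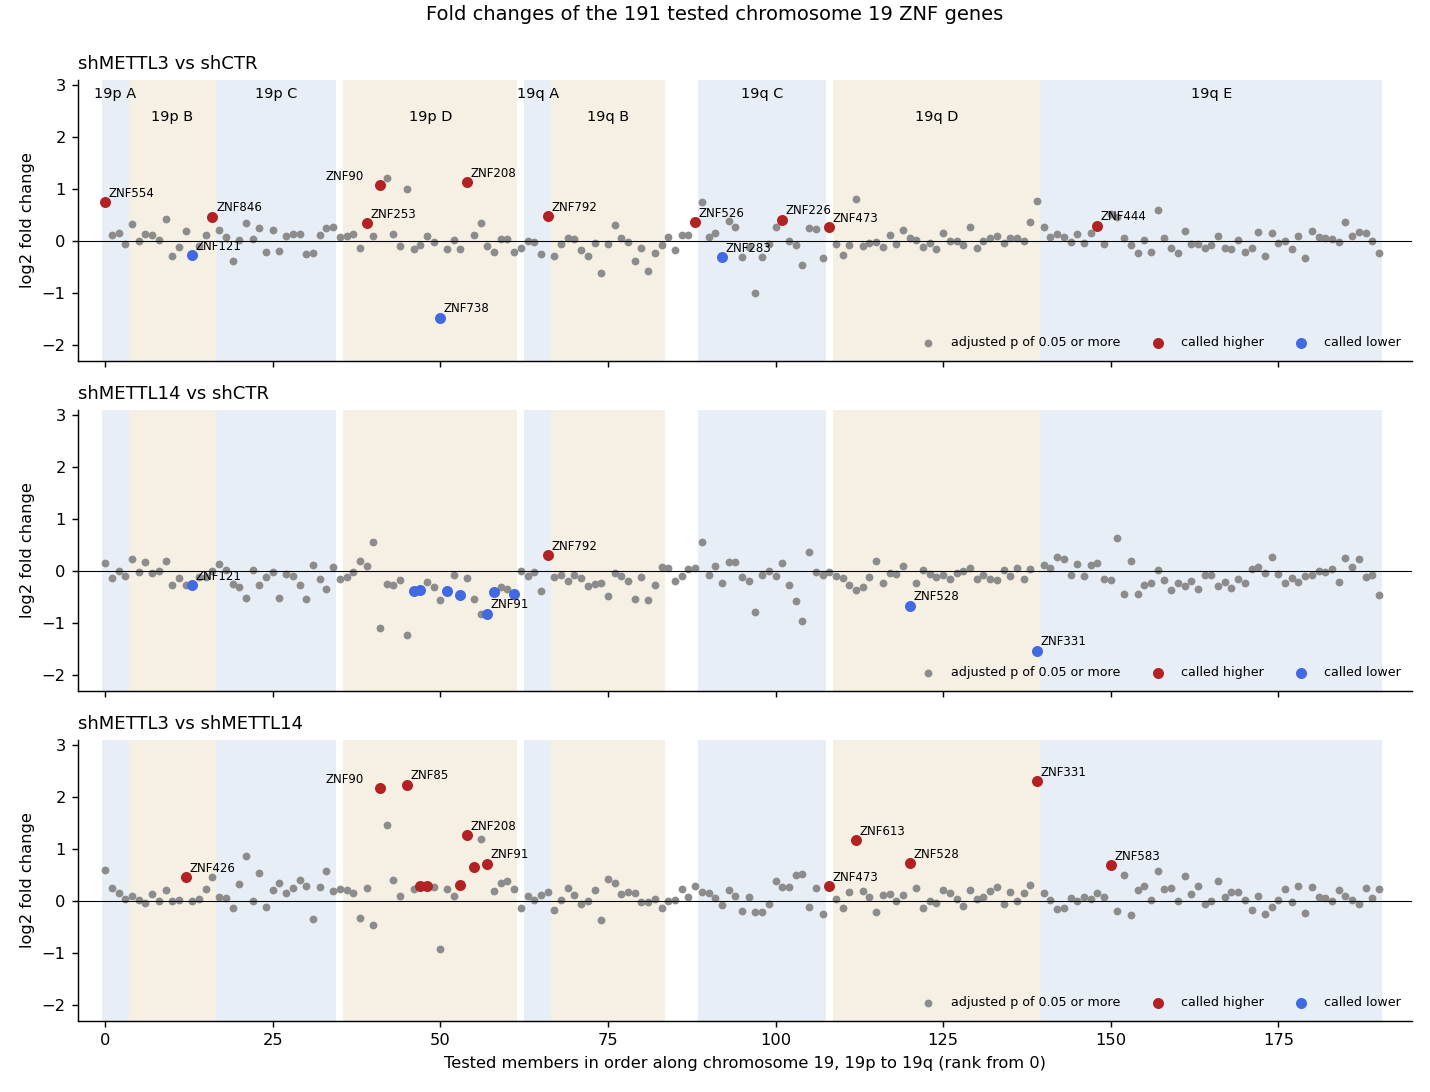
Log2 fold change of each of the 191 tested members in their order along chromosome 19, with shaded bands for the 9 clusters; coloured points passed edgeR's adjusted p of 0.05, and called members of cluster D of 19p under 0.7 in size are unnamed in the lower 2 panels. In the shMETTL14 comparison 7 of the 10 members called lower sit in that cluster, and in the comparison of the knockdowns all 14 called members are higher in shMETTL3. Of these 14, ZNF85 entered the test only through shMETTL3, where it was highest.

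The 7 members of cluster D called lower differed in level, and their common direction against shCTR follows from how they were picked. ZNF91, a repressor of SVA retrotransposons with 31 fingers, was at 4.05 and 3.76 CPM in shCTR, 3.36 and 3.94 in shMETTL3 and 2.04 and 2.40 in shMETTL14. Its log2 fold change in shMETTL14 was -0.82 (SE 0.218, edgeR adjusted p = 0.0281). ZNF100 was at 36.1 and 33.4 CPM in shCTR, 33.4 and 29.5 in shMETTL3 and 24.0 and 26.4 in shMETTL14. Both shMETTL14 libraries lay below the other 4 for both genes. ZNF100 fell by 0.46 on the log2 scale (SE 0.0917, edgeR adjusted p = 0.00357).

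ZNF714, the best covered of the 7, was at 52.7 and 51.7 CPM in shCTR, 48.0 and 50.9 in shMETTL3 and 39.9 and 40.7 in shMETTL14 (log2 fold change -0.37 in shMETTL14, SE 0.0725, edgeR adjusted p = 0.00304). ZNF493 was at 47.3 and 46.2 CPM in shCTR, 43.2 and 41.1 in shMETTL3 and 32.8 and 38.8 in shMETTL14 (-0.38, SE 0.0834, edgeR adjusted p = 0.00750). In both genes the shMETTL14 libraries were the lowest and did not overlap the others. ZNF254, the last member before the centromere, was at 25.7 and 21.9 CPM in shCTR, 21.0 and 19.98 in shMETTL3 and 17.1 and 17.9 in shMETTL14 (-0.44, SE 0.103, edgeR adjusted p = 0.0114). ZNF675, which is known to bind TRAF6, was at 18.1 and 19.6 CPM in shCTR, 16.2 and 16.5 in shMETTL3 and 13.1 and 15.4 in shMETTL14 (-0.40, SE 0.110, edgeR adjusted p = 0.0322). ZNF430 was at 18.1 and 20.1 CPM in shCTR, 18.2 and 16.2 in shMETTL3 and 15.4 and 13.8 in shMETTL14 (-0.39, SE 0.110, edgeR adjusted p = 0.0390). These 3 again had both shMETTL14 libraries below the other 4.

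**Figure D3:**
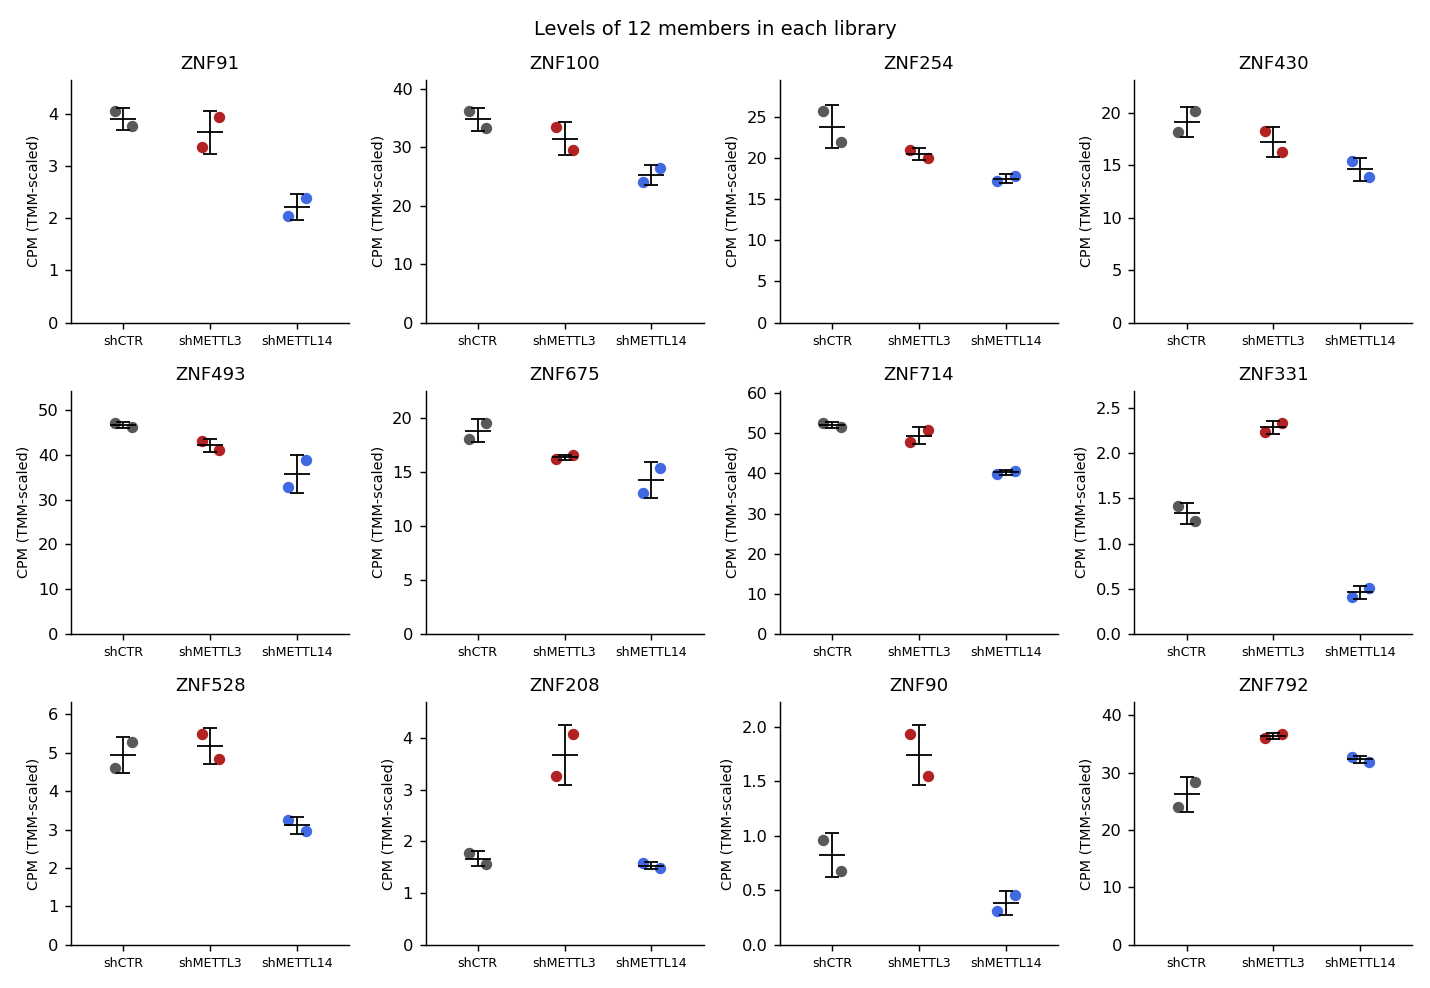
TMM-scaled CPM of 12 members in each library (points, 2 per group), with the group mean (dash) and SD (bars); each vertical axis starts at 0. The first 7 panels are the members of cluster D of 19p called lower in shMETTL14, in which both shMETTL14 points lie below those of the other groups.

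Summed over its 37 members, cluster D of 19p held 415 and 392 CPM in shCTR, 401 and 401 in shMETTL3 and 322 and 338 in shMETTL14. Over all 249 members the sums were 3032 and 3043 CPM in shCTR, 3029 and 3087 in shMETTL3 and 2826 and 2884 in shMETTL14. In both sums the shMETTL14 libraries were the lowest. In bulk RNA, fewer cells that express a gene and less RNA per cell cannot be told apart. Not every member of cluster D moved this way: ZNF93, a repressor of L1 retrotransposons, had a log2 fold change of 0.55 in shMETTL14 on 12 to 24 reads per library, ZNF506 of 0.19 and ZNF253 of 0.10, none past the threshold.

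The GC content of the transcripts moved with the same difference. The tested members of cluster D of 19p had a median GC content of 37.5% and the other tested members 43.1%. Across the 191 tested members, which share libraries and sequence and are not independent, Spearman's rho between GC content and the shMETTL14 log2 fold change was 0.375 (Pearson's r 0.360), against 0.185 (0.106) across 16662 genes. With a smooth dependence on GC content and transcript length taken out of every library, cluster D held 6 lower members, with a median of -0.27. That dependence was fitted over all annotated genes tested, in which rho was lower than in the members. Level in CPM per kb had a rho of 0.268 with the members' shMETTL14 log2 fold change and of -0.285 with their difference between the knockdowns. For that difference, GC content had a rho of -0.194 in the members and 0.118 across the annotated genes tested. The part of GC content or of level in the values of the cluster was not tested. GGACT, the commonest form of the m6A consensus, occurred at a median of 0.727 per kb in members and 0.927 in all protein-coding genes, and its density had a rho of 0.108 with the shMETTL14 log2 fold change. The 16 tested genes of other kinds within the span of cluster D had a median of -0.18, and 1 of them was lower and 0 higher (edgeR). The 804 other tested protein-coding genes of chromosome 19 had a median of 0.05, and the 220 tested ZNF genes on other chromosomes had -0.01, with 7 lower and 4 higher.

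Outside cluster D of 19p, 3 members were lower and 1 higher in shMETTL14. ZNF331, an imprinted gene first found at rearrangements in thyroid adenoma, had 28 and 24 reads in shCTR, 44 and 47 in shMETTL3 and 8 and 10 in shMETTL14, or 1.42 and 1.25, 2.24 and 2.34, and 0.407 and 0.510 CPM. The 3 groups did not overlap, and its log2 fold change in shMETTL14 was -1.53 (SE 0.375, edgeR adjusted p = 0.0168). ZNF528 was at 4.60 and 5.28 CPM in shCTR, 5.50 and 4.83 in shMETTL3 and 3.26 and 2.96 in shMETTL14, where it fell by 0.67 on the log2 scale (SE 0.195, edgeR adjusted p = 0.0443). ZNF121 was at 93.1 and 84.8 CPM in shCTR, 69.9 and 77.3 in shMETTL3 and 75.6 and 71.6 in shMETTL14. Its log2 fold change was -0.27 in each knockdown (SE 0.0723 and 0.0724), and both were called (edgeR adjusted p = 0.0135 in shMETTL3 and 0.0267 in shMETTL14).

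ZNF792 of 19q cluster A was the only member higher in shMETTL14. It was at 24.1 and 28.3 CPM in shCTR, 36.0 and 36.8 in shMETTL3 and 32.8 and 31.8 in shMETTL14. Both knockdowns lay above both controls, with log2 fold changes of 0.48 in shMETTL3 (SE 0.0887, edgeR adjusted p = 0.00103) and 0.30 in shMETTL14 (SE 0.0897, edgeR adjusted p = 0.0479). The 2 knockdowns share their control libraries, so these values are not independent of each other.

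The shMETTL14 calls rested on few libraries, and each of the 6 libraries was left out in turn. The share of all genes called in these fits is not given here. The changes in the counts therefore cannot be read as particular to the members. Without shMETTL14 replicate 1, 0 members were called by edgeR, without shMETTL14 replicate 2 there were 3, without shCTR replicate 1 there were 5, without shMETTL3 replicate 1 there were 7 and without shCTR replicate 2 there were 20, while the median of cluster D of 19p lay between -0.47 and -0.24 in these fits. No call held in all 6 of them, and DESeq2 kept 5 of the 11 (ZNF714, ZNF493, ZNF100, ZNF121 and ZNF254).

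In shMETTL3 cells members were called in both directions, at a lower share than the background. Of 191 tested members 10 were higher and 3 lower than in shCTR, or 6.81%, where 16.5% of all genes were called, 8.73% higher and 7.73% lower. Tested members had lower levels than tested protein-coding genes (medians of 2.40 and 8.47 CPM per kb). Whether level bears on the share called, here or between the knockdowns, was not tested. The median log2 fold change of the members was 0.02, against 0.00 over all genes. Of the 220 tested ZNF genes on other chromosomes, 18 were higher and 17 lower, and of the 804 other tested protein-coding genes of chromosome 19, 132 were higher and 18 lower, with a median of 0.11. In cluster D of 19p 3 members were higher and 1 lower, with a median of 0.04 that ranged from -0.04 without shMETTL3 replicate 2 through -0.03 without shCTR replicate 2 to 0.15 without shCTR replicate 1, and was 0.12 with the GC and length trend removed.

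**Figure D4:**
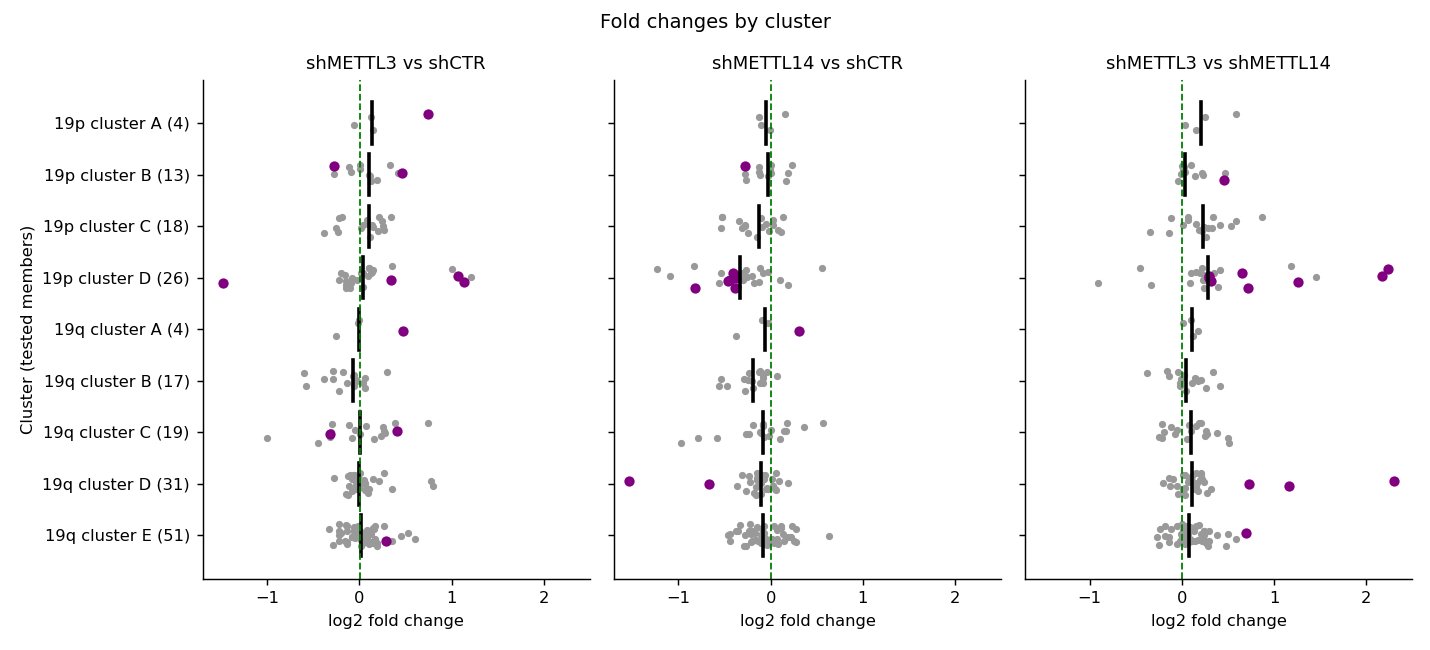
Log2 fold changes of the tested members of each cluster in the 3 comparisons (points, vertical position within a cluster is jitter; purple, edgeR adjusted p under 0.05), with each cluster's median (black bar) and the median of all genes (dashed line); members outside the clusters are left out. Cluster D of 19p has a median of 0.04 in shMETTL3, which turned to -0.04 without shMETTL3 replicate 2 and to -0.03 without shCTR replicate 2, and of -0.33 in shMETTL14.

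ZNF208 had the largest called rise in shMETTL3. It was at 1.77 and 1.57 CPM in shCTR, 3.26 and 4.09 in shMETTL3 and 1.58 and 1.48 in shMETTL14. Both shMETTL3 libraries stood above the other 4, and its log2 fold change was 1.13 (SE 0.243, edgeR adjusted p = 0.00318). ZNF90, also of cluster D of 19p, was at 0.961 and 0.679 CPM in shCTR, 1.93 and 1.54 in shMETTL3 and 0.305 and 0.459 in shMETTL14, from 6 to 38 reads per library. Its log2 fold change in shMETTL3 was 1.07 (SE 0.348, edgeR adjusted p = 0.0394). The exons of ZNF90 overlap other annotated genes by 8.79% of their bases on the same strand and 13.7% on the opposite strand, so its level is uncertain. Of the 28 members called in any comparison, 9 overlap another gene, among them ZNF208 (8.81%), ZNF473 (6.78%) and ZNF100 (4.28%) on the opposite strand and ZNF254 (3.59%) on the same strand, and the strand setting of the counting is not given in the sources used here.

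The other members higher in shMETTL3 rose by less. ZNF554 of 19p cluster A was at 2.53 and 3.92 CPM in shCTR and 5.55 and 5.28 in shMETTL3 (log2 fold change 0.75, SE 0.211, edgeR adjusted p = 0.0193). ZNF473, which takes part in the 3′ end processing of histone mRNAs, was at 23.9 and 23.0 CPM in shCTR and at 28.3 in both shMETTL3 libraries (0.27, SE 0.0875, edgeR adjusted p = 0.0401). ZNF846 (0.47), ZNF226 (0.41), ZNF526 (0.36), ZNF253 (0.35) and ZNF444 (0.29) were the rest, each with no overlap between the groups. ZNF526 lay beside ZNF574 in a run too short for a cluster, the others came from 4 different clusters, and ZNF253 was in cluster D of 19p.

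Beside ZNF121, the members lower in shMETTL3 were ZNF283 and ZNF738. ZNF283 was at 19.5 and 18.8 CPM in shCTR and 15.3 and 15.5 in shMETTL3 (log2 fold change -0.32, SE 0.101, edgeR adjusted p = 0.0385). The shCTR libraries held 23 and 21 reads of ZNF738, against 6 and 10 for shMETTL3 (-1.47, SE 0.428, edgeR adjusted p = 0.0222). The longest annotated coding sequence of ZNF738 holds a KRAB pattern and 0 fingers.

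Leaving out a library moved these counts as well, again with no share of all genes beside them. There were 2 calls without shMETTL3 replicate 1 and 2 without shMETTL3 replicate 2, and 6 without shCTR replicate 1 or without shMETTL14 replicate 1. ZNF792 was called in all 6 of these fits, and DESeq2 kept ZNF792, ZNF208 and ZNF121.

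Between the knockdowns, 14 members were higher in shMETTL3 than in shMETTL14 cells and none was lower. The share called was 7.33%, against 12.1% of all genes, 6.65% higher and 5.49% lower. By unadjusted p under 0.05 in edgeR, 41 members were higher and 1 lower, where 13.1% of all genes were higher and 11.9% lower, and DESeq2 called 6 higher and 0 lower. The members' median difference was 0.14 on the log2 scale, against 0.00 over all genes, and 150 of 191 were positive. Cluster D of 19p held 8 of the 14, with a median difference of 0.28 and 23 of 26 values positive, and the 165 tested members outside it held 6, with a median of 0.10. Both the 14 and the 8 include ZNF85, which entered the test only through shMETTL3, where it was highest. Its call is no evidence of a difference.

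ZNF331 differed most between the knockdowns, with a log2 difference of 2.31 (SE 0.342, edgeR adjusted p = 1.11e-04). For ZNF90 the difference was 2.17 (SE 0.402, edgeR adjusted p = 0.00102) and for ZNF208 it was 1.26 (SE 0.247, edgeR adjusted p = 0.00165). In each of these the 2 shMETTL3 libraries stood above the 2 shMETTL14 libraries in the values given above. For ZNF85, another member of cluster D of 19p, the counts were 10 and 9 (shCTR), 26 and 13 (shMETTL3) and 4 and 4 (shMETTL14). Its log2 difference between the knockdowns was 2.24, but it entered the test only through shMETTL3, the group in which it was highest, so its call is no evidence of a difference. It was the only one of the 28 members called in any comparison that passed the filter through a single group. Against shCTR, ZNF85 passed the threshold in neither knockdown (1.00 on the log2 scale for shMETTL3, -1.23 for shMETTL14).

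ZNF257, also of cluster D, was at 6.88 and 6.16 CPM in shCTR, 7.23 and 6.98 in shMETTL3 and 4.53 and 4.49 in shMETTL14 (log2 difference 0.65, SE 0.163, edgeR adjusted p = 0.0104). ZNF431, which had the most reads of the 14, was at 73.4 and 71.9 CPM in shCTR, 75.7 and 78.8 in shMETTL3 and 62.2 and 63.8 in shMETTL14 (0.29, SE 0.0660, edgeR adjusted p = 0.00494). In ZNF257 and ZNF431 the shCTR libraries lay between those of the knockdowns. ZNF613 (1.17), ZNF528 (0.73) and ZNF583 (0.69) of 19q were higher in shMETTL3, as were ZNF91 (0.72), ZNF426 (0.45), ZNF100 (0.32), ZNF714 (0.30) and ZNF473 (0.29). ZNF583 was at 2.73 and 2.92 CPM in shCTR, 3.97 and 4.19 in shMETTL3 and 2.39 and 2.65 in shMETTL14, and ZNF613 had from 12 to 46 reads per library.

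The call on ZNF331, ZNF90 and ZNF208 between the knockdowns held in each of the 6 fits without a library, and in DESeq2. The number of members higher was 3 without shMETTL14 replicate 1, 6 without shMETTL3 replicate 2 and 7 without shMETTL14 replicate 2 or shMETTL3 replicate 1. With the GC and length trend removed it was 23, with 1 lower.

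Several well known members were expressed without passing the test. ZNF224, a repressor of the aldolase A gene, was at 19.3 and 17.1 CPM in shCTR, 13.6 and 15.9 in shMETTL3 and 17.7 and 16.8 in shMETTL14 (log2 fold change -0.30 in shMETTL3, edgeR adjusted p = 0.0723). It shared 47.6% of its 100-base words with AC021092.1, annotated on the opposite strand, so its level is uncertain. ZNF649 was at 10.4 and 9.66 CPM in shCTR, 10.1 and 8.92 in shMETTL3 and 9.01 and 7.75 in shMETTL14. ZNF808 lay between 11.1 and 15.6 CPM and ZNF296 between 3.67 and 5.48, and neither was called. Uncalled values also included those of thinly covered members, such as ZNF491 of 19p cluster C (0.87 between the knockdowns on 13 to 40 reads) and ZNF345 of 19q cluster B (-0.60 in shMETTL3 on 5 to 11 reads). In 19q cluster E, with 51 tested members, ZNF444 was the only member called against shCTR.

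The RNA of genes for the proteins through which KRAB zinc fingers act was counted too. Of 35 genes of this corepressor machinery, all tested, 2 were higher and 3 lower in shMETTL3, and 2 were called in shMETTL14, both lower (edgeR, adjusted p under 0.05). These are 14.3% and 5.71%, near the shares of all genes called, 16.5% and 6.69%. TRIM28, the KRAB-binding scaffold, was at 517 and 551 CPM in shCTR, 490 and 483 in shMETTL3 and 526 and 524 in shMETTL14, and neither of its log2 fold changes (-0.13 and -0.02) was called. SETDB1, which trimethylates H3K9, had -0.10 and -0.06. CBX3, the HP1 gamma protein, was at 365 and 360 CPM in shCTR, 289 and 284 in shMETTL3 and 366 and 360 in shMETTL14 (log2 fold change -0.34 in shMETTL3, edgeR adjusted p = 3.42e-04). PPHLN1, a subunit of the HUSH silencing complex, also fell by 0.34 on the log2 scale in shMETTL3 (edgeR adjusted p = 0.00121), and HDAC1 fell by 0.23 there. TASOR (listed as FAM208A), another HUSH subunit, rose by 0.22 and the histone chaperone DAXX by 0.21. In shMETTL14 the lowered genes were RBBP4, a histone-binding subunit of NuRD (-0.27), and the DNA methyltransferase DNMT3B (-0.25).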

How the data were processed

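Poly(A) RNA of 6 K562 libraries, 2 each of shCTR, shMETTL3 and shMETTL14, was compared, with groups and replicate numbers from the labels. The authors deposited whole-number read counts per gene, not normalized, for 61661 identifiers. The submitters' processing notes name HTSeq 0.6.1 and hg38, with no role given. The aligner, annotation, strand setting and handling of multimapping reads are not given in the sources used here. Identifiers outside the annotation held 0.635% to 0.703% of a library's counts.

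Of the identifiers, 57055 matched a GENCODE release 29 gene (GRCh38), which gave symbols, positions, the longest transcript, its GC content, and the translated coding sequences searched for KRAB and C2H2 patterns. Arms were split at 26 Mb. Exact words of 100 bases were compared between genes. Tests used edgeR 4.0.16 under R 4.3.3, with filterByExpr (minimum count 10), TMM and the quasi-likelihood test in a single fit of 3 groups over 17686 genes, Benjamini-Hochberg adjustment over all of them and a threshold of 0.05. CPM values are TMM-scaled, so fold changes are relative to the other genes. Up to 3 reads per library was taken as the floor, which covers counting error only. The alternatives were DESeq2 1.42.0, other scalings and filters, a GC and length trend, a replicate block, a fold threshold of 1 on the log2 scale, and each library left out.

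The members, clusters and lists were chosen with earlier results of these data known. Named members were, per comparison, up to 8 called in each direction whose compared libraries all held 10 or more counts and did not overlap between groups, the 6 with the highest level per length, well known members, and the largest change in each cluster; others, such as ZNF473, ZNF431 and ZNF506, were named after their values were seen. The steps were tested on simulated data. No column of the table was left unmapped. One marker gene of the line is not reported here.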

Additional observations from a re-analysis of the deposited data

Results flagged for a closer look

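Of the members called between the knockdowns (edgeR, adjusted p under 0.05), 6 had the shCTR libraries between those of the knockdowns. In these, both shMETTL3 libraries lay above both shCTR libraries and both shMETTL14 libraries lay below them. ZNF85 is counted among the 6, though its call is no evidence of a difference. Between the knockdowns 7.33% of tested members and 12.1% of all genes were called. The share of all genes with this ordering was not counted. The log2 difference, shMETTL3 minus shMETTL14, was 2.31 in ZNF331, 2.24 in ZNF85, 2.17 in ZNF90, 0.69 in ZNF583, 0.65 in ZNF257 and 0.29 in ZNF431. ZNF331, ZNF85 and ZNF90 rest on at most 47 reads in any library, and ZNF85 entered the test only through shMETTL3, where it was highest, so its difference is given as a value alone.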

How the results depend on the processing

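Of the 13, 11 and 14 members called in the 3 comparisons, 0 changed sign in any of the 14 other fits. Members called in shMETTL3 (13: 10 higher, 3 lower) numbered 3 (2 higher, 1 lower) with DESeq2, 5 (3 higher) without the filter on low counts, 8 (6 higher) with the compared groups only and 3 (2 higher, 1 lower) with the fold threshold. In shMETTL14 (11: 1 higher, 10 lower) they numbered 5 (0 higher, 5 lower) with DESeq2 and 5 (0 higher, 5 lower) without the filter, 1 (0 higher, 1 lower) with the fold threshold, and 0 were higher with the compared groups only; cluster D of 19p held 4, 4 and 0 lower under the first 3 of these. Between the knockdowns (14 higher, 0 lower) DESeq2 gave 6, the fold threshold 5 and members with a mean of at least 50 counts 9. Removal of the GC and length trend gave 24 (23 higher, 1 lower), and the same with the replicate block 30 (29 higher, 1 lower). Cluster D held 4, 3, 5, 13 and 15 of these, in the same order. The median of 0.14 became 0.17 with library size alone and 0.11 with the better covered members. The better covered members number 159, and the fold threshold only narrows the calls among the 191, both by construction. DESeq2 and the fit without the filter took in 240 members. Otherwise the cause was not tested.

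With each library left out, the calls ranged from 2 to 13 in shMETTL3 (1 to 8 higher, 0 to 5 lower), from 0 to 20 in shMETTL14 (0 to 5 higher, 0 to 15 lower, 0 to 9 lower in cluster D) and from 3 to 21 between the knockdowns, all higher (2 to 10 in cluster D). The lone library of a group was then taken to vary like the others, and the share of all genes called in these fits is not given here. Medians ranged from -0.0022 to 0.0493 in shMETTL3, crossing 0, from -0.1112 to -0.1064 in shMETTL14 and from 0.13 to 0.15 between the knockdowns. Of the named called members, 25 of 94 values in shMETTL3, 16 of 87 in shMETTL14 and 9 of 95 between the knockdowns lost the call under the other settings, and with a library left out 43 of 72, 34 of 66 and 30 of 72 did.

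Replicate numbers are shared between groups, but same-numbered libraries did not deviate together (r = 0.0614 for shCTR and shMETTL3, 0.00511 for shCTR and shMETTL14, -0.0200 for the knockdowns). With the replicate number as a replicate block, 14, 14 and 18 members were called in the 3 comparisons. Low counts limit the 58 untested members, for which no difference could be shown at this depth.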
